A study of Mus musculus with 2 samples.

Results

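The 10 genes described here are heat shock protein genes and their master regulator: Hspa1a, Hspa1b, Hspa5, Hspa8, Hsp90aa1, Hsp90ab1, Dnajb1, Hsph1, Hspb1 and Hsf1, out of 21770 protein-coding mouse genes. The genes were chosen by name, with earlier results on these peaks known, and their KMT2D peaks were selected on the position of the called summit, inside the gene or within 50 kb of it. This rule found 9 of the 3738 peaks in the list. KMT2D, a histone H3 lysine 4 methyltransferase, had been profiled by ChIP-seq in HT22, a line of immortalised hippocampal cells from the mouse. There was 1 library precipitated with an anti-KMT2D antibody (Millipore ABE1867) and 1 input library without antibody, both from cells labelled as a wild-type clone, sampled at 70% confluency and given no heat or other treatment in the labels. Both libraries share the wild-type genotype. The series' design also names HT22 cells with the KMT2D SET domain deleted by CRISPR-Cas9, which are not analysed here. As each group held 1 library, nothing could be checked against replicates and no test was run. Intervals cover only the counting error of the ChIP fragments, with the background held fixed. RNA was not measured, so the labelled cell type was not checked against marker transcripts, and a peak here says nothing of how much of a chaperone the cells made.

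Heat shock proteins are chaperones that bind unfolded proteins and help them fold, refold or be degraded. HSP70 proteins (Hspa genes) hold client segments in a cycle driven by ATP, HSP40 proteins such as DNAJB1 deliver clients and stimulate that cycle, HSP110 (Hsph1) acts as their nucleotide exchange factor, HSP90 matures kinases and receptors, and the small heat shock protein HSPB1 holds unfolded clients without ATP. Under stress, HSF1 trimerises and binds heat shock elements, which are inverted repeats of short GAA units, in the promoters of many of these genes.

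RefSeq promoter entries (GRCm38.p6, the same build as mm10) were matched for 6 of the 10 members. For Hspa8, Hsp90aa1, Hsp90ab1 and Hsf1 distances were taken to the nearer end of the gene. The promoters below are shown because each holds a match to a short heat shock element or, in Hspa5, to the ER stress element. None of them held a summit, and the inducible HSP70 genes Hspa1a and Hspa1b share their match. Each is the 250 bases before the start, 5′ to 3′ on the gene's strand. Capitals mark matches to GAANNTTC or TTCNNGAA, 2 inverted heat shock units, and in Hspa5 a match to the ER stress element.
Hspa1b, chr17:34959239-34959488, minus strand: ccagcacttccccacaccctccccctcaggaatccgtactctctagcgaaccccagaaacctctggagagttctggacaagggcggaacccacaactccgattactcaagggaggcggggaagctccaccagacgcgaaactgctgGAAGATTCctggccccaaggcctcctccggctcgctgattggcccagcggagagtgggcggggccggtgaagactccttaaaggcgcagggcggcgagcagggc
Hspa1a, chr17:34972157-34972406, minus strand: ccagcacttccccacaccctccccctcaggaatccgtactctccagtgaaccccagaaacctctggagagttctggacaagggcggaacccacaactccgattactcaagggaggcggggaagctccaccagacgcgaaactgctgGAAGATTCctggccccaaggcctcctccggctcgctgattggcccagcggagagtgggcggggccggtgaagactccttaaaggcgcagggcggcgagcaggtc
Hspb1, chr5:135887669-135887918, plus strand: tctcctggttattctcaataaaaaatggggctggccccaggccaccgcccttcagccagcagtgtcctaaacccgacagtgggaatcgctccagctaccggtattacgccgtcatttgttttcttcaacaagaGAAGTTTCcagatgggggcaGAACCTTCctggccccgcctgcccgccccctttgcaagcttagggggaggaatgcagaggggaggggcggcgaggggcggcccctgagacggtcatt
Hsph1, chr5:149636337-149636586, minus strand: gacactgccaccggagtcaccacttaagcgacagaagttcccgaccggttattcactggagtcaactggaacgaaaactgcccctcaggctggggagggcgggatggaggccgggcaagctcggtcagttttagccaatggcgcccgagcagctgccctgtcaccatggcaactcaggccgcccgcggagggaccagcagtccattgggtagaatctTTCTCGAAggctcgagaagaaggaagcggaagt
Hspa5, chr2:34771840-34772089, plus strand: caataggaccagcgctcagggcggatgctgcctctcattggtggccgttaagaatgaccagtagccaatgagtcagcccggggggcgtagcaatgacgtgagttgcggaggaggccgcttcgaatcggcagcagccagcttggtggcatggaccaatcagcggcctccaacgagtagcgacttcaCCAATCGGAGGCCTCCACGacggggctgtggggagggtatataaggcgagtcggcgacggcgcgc

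The promoters of Hspa1a and Hspa1b, which encode the inducible HSP70 proteins, were the same at 247 of 250 bases (98.8%). Each had GAAGATTC from 104 to 97 bases before its start. Hspb1 had GAAGTTTC at 117 to 110 and GAACCTTC at 97 to 90 bases. Hsph1 had TTCTCGAA at 33 to 26 bases before its first start. Either form was thus present in 4 of the 6 members with an entry, or 5 of their 8 promoters (62.5%), against 11.8% of the 21262 promoters of protein-coding genes. The 5 promoters are not independent. The 2 Hsph1 promoters overlap and hold the same TTCTCGAA, and those of Hspa1a and Hspa1b are near copies. Hspa5, which encodes the ER chaperone BiP, had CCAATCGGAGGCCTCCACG, a match to the ER stress element, at 65 to 47 bases, and 0.132% of promoters held such a match. Dnajb1 had no match to these elements in its 2 promoters. Both strands were searched, and each form reads the same on both. A heat shock element of 3 alternating units, which contains both shorter forms, was in 0 of the 8 member promoters and 0.386% of all. CCAAT was in 6 of the 8 and TATAAA in 0, against 35.4% and 11.6% of all. The CCAAT count includes the same Hsph1, Hspa1a and Hspa1b promoters and comes from 5 of the 6 members. All these motif counts are exact matches of letters, not measured binding. Heat shock elements with a changed letter in a unit, and variants of TATAAA such as tatataagg in Hspa5, were not counted. The counts of 0 thus do not show that imperfect elements are absent.

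Of the 10 members, 7 had at least 1 summit inside or within 50 kb, where 24.9% of all protein-coding genes did. The rule used these peaks, so the count is a description and nothing was tested. Hspa1a and Hspa1b lie side by side and share 1 peak, so the 7 genes stand for 6 of 9 loci. A single summit was found for 5 members, 2 for Hsp90ab1 and 3 for Hsf1. Among all protein-coding genes 9.22% had 2 or more summits in such a window and 3.55% had 3 or more. Only Hspa8 had a summit inside the gene, as did 6.72% of all genes. Hspa8 was the 1 member of 10 with a summit within 2 kb of its start or nearer end, where 4.73% of all genes had one.

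**Figure D1:**
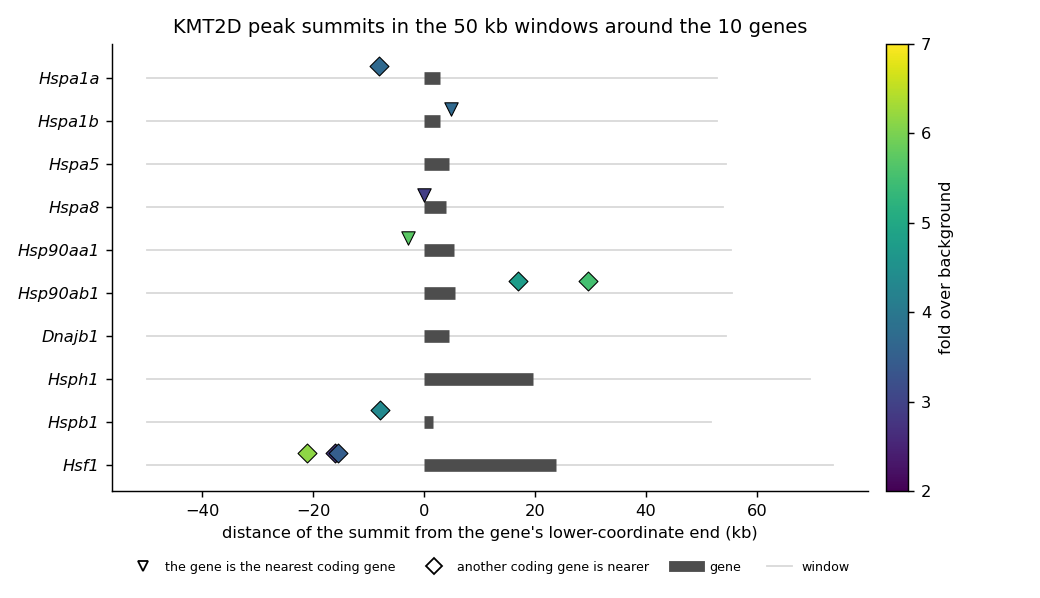
Summits of KMT2D peaks around each gene, by distance in kb from the gene's end at the lower coordinate. Colour gives the fold over background, triangles mark summits whose nearest protein-coding gene is the member itself, and diamonds those nearer to another. Hspa5, Dnajb1 and Hsph1 have none, and the Hsf1 summits lie to one side of the gene at 15514 to 21061 bp.

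Hspa8 encodes HSC70, the constitutive HSP70 of unstressed cells, and had the peak closest to any member. This peak spanned chr9:40801253-40801631 and its summit lay 46 bp inside the gene, at the end with the lower coordinate. It had the fewest ChIP fragments of the 9 peaks. The summit carried 22 ChIP fragments over a background of 6.92, a fold of 2.90 (95% Poisson interval 1.87 to 4.33), and 10.6% of the list had a fold as low or lower. All folds are those of the authors' peak caller. The nearest other gene was Snord14c, a small nucleolar RNA gene 2261 bp away, and no other protein-coding gene was closer than Clmp at 15769 bp. The next summit on the chromosome lay 670175 bp from Hspa8.

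Hspa1a and Hspa1b shared a peak at chr17:34961136-34961379. Its summit lay between the genes, 2055 bp upstream of the Hspa1b start and 8066 bp from the lower end of Hspa1a, so just beyond the 2 kb window of Hspa1b. The peak itself lay outside both promoters printed above. It carried 24 ChIP fragments over 5.79, a fold of 3.68 (interval 2.41 to 5.40). The fold was below the median of the list, 4.45. This locus is crowded, with 9 protein-coding genes within 50 kb of the summit, and its genes are near copies. How reads that match both copies were placed is not given in the sources used here.

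Hspa5, whose protein is the main HSP70 of the endoplasmic reticulum, had no summit in its window. The nearest lay 501391 bp away with a fold of 4.34. No peak overlapped its promoter, printed above.

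The HSP90 genes differed in where their peaks lay. Hsp90aa1 encodes the inducible cytosolic form, HSP90 alpha. Its peak spanned chr12:110687900-110688336, with the summit 2839 bp outside the gene beyond its lower end and with no gene of any type nearer. It carried 27 ChIP fragments over 3.89, the lowest background of the 9, and a fold of 5.72 (interval 3.84 to 8.24). That was the highest fold among the peaks for which a member was the nearest protein-coding gene. Hsp90ab1 encodes the constitutive form, HSP90 beta, and had peaks at chr17:45584446-45585009 and chr17:45596756-45597334. Their summits lay 11424 and 23980 bp beyond the upper end of the gene. The first carried 55 ChIP fragments over 10.8, a fold of 4.74 (interval 3.59 to 6.15), and lay 515 bp from Slc29a1, which encodes a nucleoside transporter. The second carried 45 over 7.35, a fold of 5.51 (interval 4.05 to 7.33), and lay inside Slc29a1, 90 bp upstream of one of that gene's annotated starts. Both Hsp90ab1 peaks were thus closer to Slc29a1 than to the chaperone gene.

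Dnajb1 and Hsph1, the HSP40 and HSP110 genes among the members, had no peak in their windows. For Dnajb1 the nearest summit was 384541 bp away with a fold of 7.59, and for Hsph1 it was 109552 bp away with a fold of 4.07. Of the summits outside every window, those nearest to a member were 74545 bp from Hspa1a and 87463 bp from Hspa1b, which is 1 summit with a fold of 3.47, and 99397 bp from Hsp90aa1, with a fold of 2.78. The farthest assigned summit was the outer Hsp90ab1 one, at 23980 bp, so no summit lay near the 50 kb limit on either side.

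Hspb1, the gene of the small heat shock protein HSP25, had a narrow peak of 208 bp at chr5:135879886-135880093. Its summit lay 7932 bp upstream of the start, nearer to Srrm3 (5214 bp), a splicing factor gene, and to the small nuclear RNA gene Gm22450 (4224 bp). It carried 26 ChIP fragments over 5.19, a fold of 4.36 (interval 2.91 to 6.32), which was the median of the 9.

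Hsf1, the transcription factor gene, had the highest and the lowest fold of the 9 peaks. All 3 lay beyond its lower end and inside Bop1, a ribosome biogenesis gene. The outermost spanned chr15:76456159-76457116, 21061 bp from Hsf1, and at 958 bp was as wide as or wider than 98.8% of the list. It carried 53 ChIP fragments over 7.78, a fold of 6.15 (interval 4.63 to 8.01), and lay 1110 bp from Scx, which encodes the tendon transcription factor scleraxis. The middle peak, chr15:76461241-76461452, carried 26 over 8.60, a fold of 2.81 (1.87 to 4.07), with its summit 15985 bp from Hsf1. The innermost, chr15:76461726-76461959, carried 37 over 9.94, a fold of 3.47 (2.47 to 4.75), at 15514 bp. The last 2 summits were only 471 bp apart, and the outermost was 5076 bp from the middle one. Chromosome 15 had the highest share of genes with a summit in such a window among the members' 7 chromosomes, 35.8%, and the highest median background at its summits, 7.55 fragments. The 3 Hsf1 backgrounds all lay above that median, and the part of this in the count of Hsf1 peaks was not tested.

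**Figure D2:**
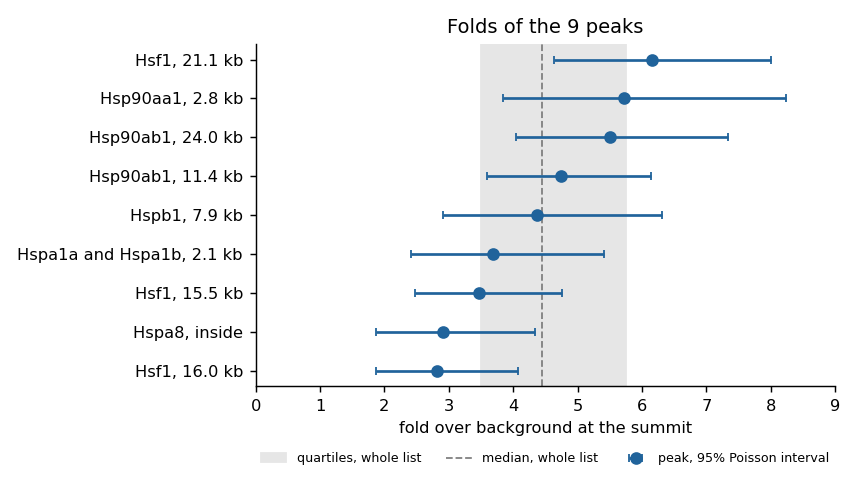
Fold over background at the summit of each of the 9 peaks, with its exact 95% Poisson interval, labelled by gene and distance outside the gene. The shaded band holds the middle of the whole list, 3.50 to 5.75, and the dashed line its median, 4.45. The intervals of all peaks that follow each other in this order overlap.

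Set in order, the 9 folds ran from 2.81 to 6.15 with a median of 4.36, beside 4.45 for the whole list. Below the list's median were 5 of them and above it 4. The lower quartile of the list, 3.50, was undercut by 3 (both inner Hsf1 peaks and Hspa8), and the upper quartile, 5.75, was passed by 1 (the outer Hsf1 peak). All 8 pairs of neighbours in this order had overlapping intervals. Of all 36 pairs, 2 had separate ones: the outer Hsf1 peak against the middle Hsf1 peak and against the Hspa8 peak. The outer Hsf1 interval began at 4.63, and the others ended at 4.07 and 4.33. The intervals leave out the counting error of the background, so these separations are not secure. The ChIP fragments at the summits ran from 22 to 55 with a median of 27, against 31 for the list. Backgrounds ran from 3.89 to 10.8 with a median of 7.35, against 6.05, and 6 of the 9 were above the list's median. Widths ran from 208 to 958 bp, with a median of 379 against 296.

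**Figure D3:**
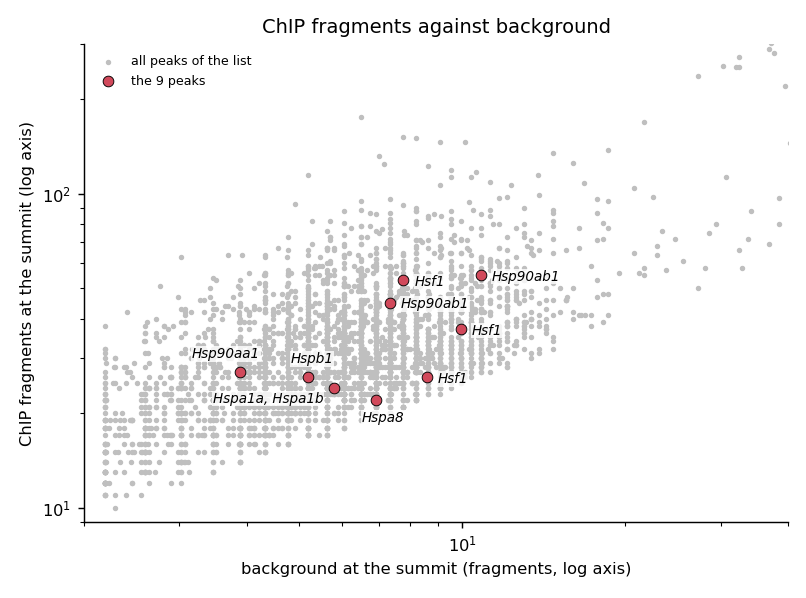
ChIP fragments against background fragments at each summit, both on log axes, for all peaks (grey) and the 9 peaks (red, named by gene). The 9 lie within the cloud of other peaks, with Hsp90aa1 at the lowest background and Hsp90ab1 at the highest fragment count, and 100 peaks of the list fall outside the axes.

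Most of the 9 peaks had another gene closer than the chaperone gene. The member was the nearest protein-coding gene for 3 of them, at Hspa8, Hsp90aa1 and Hspa1b. The other 6 were nearest to Slc29a1, Srrm3 or Bop1. The members' windows held a median of 3.5 other protein-coding genes (range 1 to 8), against 3 for all genes. The members were shorter than most genes, with a median length of 4460 bp against 17220 bp. From gene to nearest summit the median distance was 9745 bp for the 10 members and 201272 bp for all protein-coding genes. The members were chosen with earlier results on these peaks known, so this contrast is a description and was not tested. Hspa1a and Hspa1b enter it with the same summit.

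**Figure D4:**
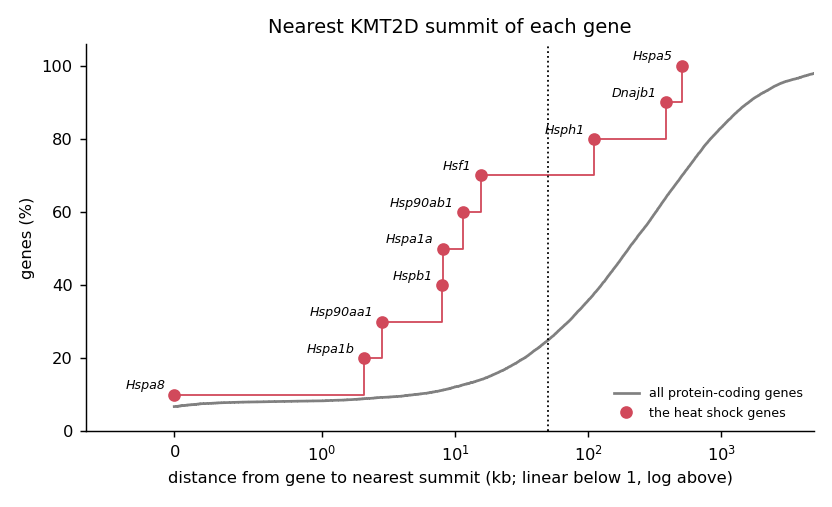
Cumulative share of genes by distance to the nearest KMT2D summit, for the 10 heat shock genes (red, named) and all protein-coding genes (grey). The axis is linear below 1 kb and logarithmic above, and the dotted line marks 50 kb, which 7 of the 10 genes and 24.9% of all genes lie within. The genes were chosen with earlier results on these peaks known, so the curves are a description.

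The wider chaperone system was examined with 8 lists holding 123 other genes. Of these, 37 (30.1%) had a summit inside or within 50 kb and 9 (7.32%) within 2 kb of the start, against the 24.9% and 4.73% given above for all genes. The median fold of their 48 peaks was 4.06. The shares near the background are not results about these genes.

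Chaperonins are the folding chambers of the cytosol and the mitochondrion. Of 11, 4 (36.4%) had a summit within 50 kb and 3 (27.3%) within 2 kb of the start. The shares of all genes were 24.9% and 4.73%. Hspd1 and Hspe1, which encode the mitochondrial HSP60 and its lid HSP10, lie head to head on opposite strands and shared 1 peak. Its summit lay 87 bp upstream of the Hspe1 start and 129 bp upstream of an annotated Hspd1 start, 182 bp inside the outermost end of Hspd1, with 44 ChIP fragments over 9.08 and a fold of 4.46 (interval 3.27 to 5.96). The Hspe1 promoter is printed because the summit fell within its heat shock element, a run of 18 bases from 89 to 72 bases before the start, in capitals.
Hspe1, chr1:55087898-55088147, plus strand: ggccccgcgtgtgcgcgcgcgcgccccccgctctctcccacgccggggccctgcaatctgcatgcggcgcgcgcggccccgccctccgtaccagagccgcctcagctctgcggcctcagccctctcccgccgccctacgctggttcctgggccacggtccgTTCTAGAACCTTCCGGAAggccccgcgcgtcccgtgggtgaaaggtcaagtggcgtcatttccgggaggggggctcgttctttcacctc
From that Hspd1 start the same run lies at 144 to 127 bases. Of the 122 promoters of genes in these lists, 4 held an element of 3 units (3.28%), against 0.386% of all promoters. These 4 hold only 2 distinct elements, the run shared by Hspd1 and Hspe1 and 1 site of Dnajb6 that falls before 2 of its starts. The form with 2 units was in 18 of the 122 (14.8%), near the 11.8% of all promoters. A summit marks the highest pileup of sonicated fragments and does not place KMT2D to the base. Cct6a, a subunit of the cytosolic chaperonin, had a summit 159 bp upstream of its start with a fold of 4.03 (2.79 to 5.63), nearer to Psph.

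Other HSP40 genes had a summit within 50 kb for 11 of 42 (26.2%) and near the start for 3 (7.14%). The shares of all genes were 24.9% and 4.73%. Dnajc11 had a fold of 4.69 (3.12 to 6.79) 21 bp inside the gene, and Dnaja1, a cytosolic partner of HSP70, 3.01 (2.03 to 4.30) at 90 bp downstream of its start. Dnajc2 had 3.32 at 1556 bp from its end, nearer to Psmc2. The highest folds of this list were 8.79 and 10.3, at summits 8682 and 10411 bp outside Dnajb12, their nearest protein-coding gene. Of the other HSP90 genes, Trap1, the mitochondrial form, had a summit 72 bp upstream of an annotated start with a fold of 2.50 (1.59 to 3.77). Hsp90b1, the ER form, had one at 5341 bp from the gene, and its fold was 4.96.

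Other HSP70 and HSP110 genes had 4 of 10 (40%) with a summit within 50 kb and 0 near the start. The shares of all genes were 24.9% and 4.73%. The highest folds were at Hspa9, the mitochondrial HSP70, 5.01 at 35898 bp and nearer to Etf1, and Hspa1l, 3.68, which is the peak shared by Hspa1a and Hspa1b. Small heat shock protein genes had a summit within 50 kb for 2 of 9 (22.2%), Hspb7 and Hspb6. At Hspb7 the fold was 4.79, 563 bp outside the gene and 5094 bp downstream of its start. At Hspb6 it was 3.88 at 27862 bp, nearer to Arhgap33. None of the 5 other heat shock factor genes had a summit within 50 kb (0 of 5). Co-chaperone genes had 4 of 23 (17.4%) within 50 kb and 0 near a start. The highest were Cdc37, the HSP90 partner that delivers kinases, with 8.92 (6.43 to 12.1) at 4180 bp from the gene and nearer to Tyk2, and Stub1, the ubiquitin ligase CHIP, with 7.53 (5.90 to 9.49) at 42183 bp and nearer to Mettl26.

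The ER chaperone and unfolded protein response list had 10 of 21 (47.6%) with a summit within 50 kb and 2 (9.52%) near a start. For all genes these shares were 24.9% and 4.73%. Summits 24123 to 47558 bp from Pdia4 had backgrounds of 30.6 to 79.9 fragments, against a median of 6.05 for all peaks. The Pdia4 peaks are part of the median fold given above for the other lists. Ddit3, the stress transcription factor CHOP, had summits 1550 and 272 bp upstream of its start with folds of 8.51 (6.32 to 11.2) and 5.21 (3.86 to 6.89), both nearer to Mbd6. Atf4, which drives the integrated stress response, had a summit 446 bp downstream of its start with a fold of 2.29 (1.56 to 3.25), and another 35699 bp upstream with a fold of 9.72 (7.69 to 12.1), nearer to Mgat3. Hspa5, the chaperone target of this response, had none, as given above.

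**Figure D5:**
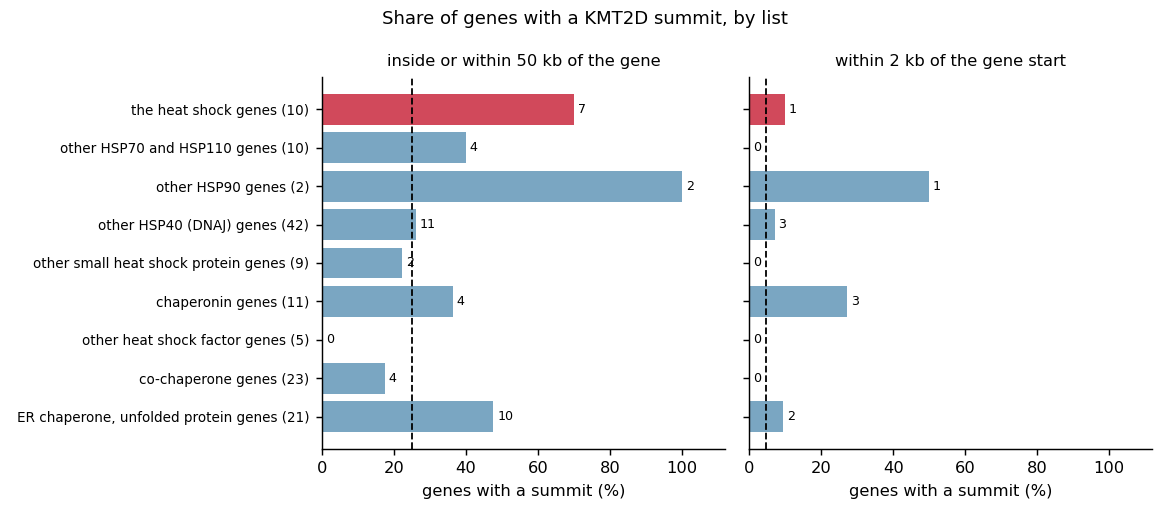
Share of genes with a KMT2D summit inside or within 50 kb (left) and within 2 kb of the start (right), for the 10 heat shock genes (red) and the 8 other lists (blue), with the number of genes in brackets and the number with a summit beside each bar. Dashed lines mark all protein-coding genes, 24.9% and 4.73%, and the list of 2 HSP90 genes is the only one at 100%.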

How the data were processed

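One KMT2D ChIP library and 1 input library of wild-type HT22 cells were compared through the single peak list. The submitters' processing notes name Bowtie2, Picard, MACS2 and mm10; no versions or settings were given. The deposited list gives each peak's fold over background. It was taken as the ratio of ChIP pileup to background after 1 was added to each. The authors' caller also gave p-values and q-values, deposited as −log10, with a lowest −log10 q of 1.32.

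Fragments and background at each summit were solved from fold and p-value, taking the fold as (n + 1) over (b + 1) and p as the upper Poisson tail beyond n for mean b, with Python 3.11.15 and scipy 1.17.1. Whole n that gave the p-value within 0.001 on the log scale were found for 3690 of 3738 peaks (98.7%), all 9 described here included. Total reads per library are not used here. Fold intervals are exact 95% Poisson intervals of n with b fixed. The procedure was tested on simulated data. The simulated folds and p-values were made with these same formulas, so that test cannot show that the caller used them.

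Genes and promoters came from RefSeq tables of GRCm38.p6. Genes on unplaced or alternate sequences were left out, which kept 21770 protein-coding genes, 80.3% of them with an annotated start. For the others the nearer end was used. Positions count from 1. Named were all 10 members, up to 4 genes of each other list with a summit near the start (otherwise up to 2 within 50 kb), and nearer genes. Hsp90b1, Dnajb6, Dnajb12 and Pdia4 were named after their values were seen. The members and lists were chosen with earlier results of these data known. Stricter peak thresholds, other windows, whole peak intervals, the nearest gene and either gene end were tried as alternatives.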

Additional observations from a re-analysis of the deposited data

How the results depend on the processing

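Of 36 alternative values, 18 stayed. For counts this meant within 1.5 times the reported count, and for the median fold within the Poisson interval of the median peak. That interval, 2.91 to 6.32, is wider than the quartiles of the whole list, 3.50 to 5.75, so staying within it says little of stability. The median fold ran from 3.68 to 6.15, the highest value from 1 peak. When peaks below the median −log10 q (8.26) were left out, 3 of the 10 members and 4 peaks were left within 50 kb, 0 members at a start, and 17 and 3 of the other chaperone genes. When those below the upper quartile of fold (5.75) were left out, these were 1 member and 1 peak, 0 members at a start, and 8 and 1 other genes. The share of all genes within 50 kb also fell, to 13.6% and 7.48%, and the share at a start to 1.51% and 0.533%. A 10 kb window left 4 peaks (5 members, against 12.1% of all genes) and 22 other genes, and a 100 kb window held 57 other genes (7 members, against 35.8%). Giving each peak only to its nearest protein-coding gene left 3 members, 3 peaks and 14 other genes, against 10.5% of all genes. At the start, or the nearer end where no start was annotated, a 5 kb window held 3 members, against 6.05% of all genes. These were Hspa8, Hspa1b and Hsp90aa1, and for Hspa8 and Hsp90aa1 the end used is not known to be the start. Using the whole peak interval held 2, Hspa8 and Hspa1b, against 4.84%. Fewer peaks or a changed window made these differences by construction. No paired analysis was possible because there was 1 library per group. Backgrounds of 3.89 to 10.8 fragments limit the precision of each fold.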
